A study of Saccharomyces cerevisiae with 6 samples.

Results

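RNA levels of 10 nucleolar DEAD-box RNA helicase genes of *Saccharomyces cerevisiae* were compared between cells expressing H2B K37A and cells expressing wild-type H2B. The genes were *DBP3*, *DBP6*, *DBP7*, *DBP8*, *DBP9*, *DBP10*, *DRS1*, *HAS1*, *MAK5* and *SPB4*. They were chosen by name, with earlier results of these data known, as the rows of the deposited table that the platform annotation assigns to them. Each was measured by 1 probe set, making 10 of the 5449 genes and 10 of the 5498 *S. cerevisiae* probe sets tested. The 3 cultures of the mutant (YKG007, in which alanine takes the place of lysine 37 of histone H2B) and the 3 cultures of its isogenic wild-type strain (YKG001) were raised in parallel in YPD and harvested in mid-exponential phase, and each gave RNA for 1 Affymetrix Yeast Genome 2.0 array. By the genotypes given in the paper, mutant and wild type are *MATa* and lack both chromosomal *HTA*-*HTB* gene pairs, which *LEU2* and *TRP1* replace. They carry *leu2D1*, *ura3-52*, *lys2D1*, *lys2-128d*, *his3D200* and *trp1D63*, and live on the H2A and Flag-tagged H2B of a *HIS3* plasmid. The plasmid is pKG2 in the mutant and pZS145 in the wild type. The labels name no second isolate of either strain, so 3 cultures of 1 mutant strain stand for the mutation.

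DEAD-box helicases are ATPases that unwind short RNA duplexes or strip proteins from RNA, and take their name from the aspartate, glutamate, alanine and aspartate of a conserved motif. In yeast many of them work in the nucleolus, where each opens or remodels particular contacts of the precursor ribosomal RNA, small nucleolar RNAs and assembly factors. Most are essential for growth, and their genes belong to the ribosome biogenesis group, which is transcribed strongly in rapidly growing cells and shut down under starvation or stress.

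*DBP8* and *DBP7* had the largest differences of the 10 genes, with RNA levels 1.73-fold and 1.69-fold higher in H2B K37A cells, and *DBP10* was 1.20-fold higher. These 3 genes passed the test, none was lower, and 7 did not pass. Over all tested probe sets, 6.44% were called higher and 8.08% lower in the mutant, with limma and a Benjamini-Hochberg adjusted p of 0.05 as the threshold. All values are the authors' log2 signals, so that a difference of 1 is a 2-fold change, and none of the 10 genes reached the 2-fold cutoff of the study. The median log2 difference of the 10 genes was 0.13, and that of all tested probe sets was 0.0020.

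**Figure D1:**
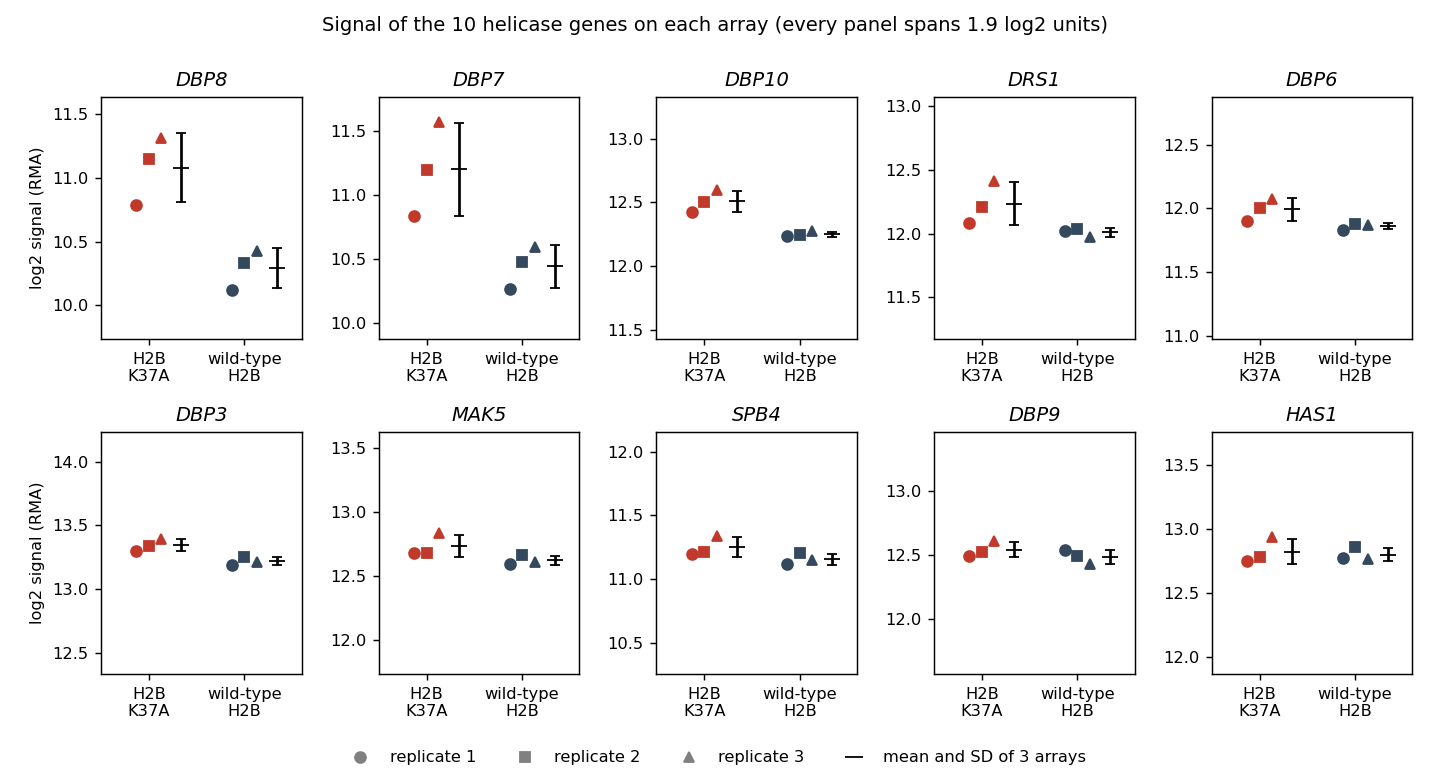
Log2 signal of each helicase gene on the 3 H2B K37A arrays (red) and the 3 wild-type H2B arrays (dark blue), with the mean and SD beside the points, and panels ordered by the size of the difference. In *DBP8* and *DBP7* every mutant array lies clearly above every wild-type array, by at least 0.36 and 0.24, while the arrays of *SPB4*, *DBP9* and *HAS1* overlap between the strains.

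*DBP8* (YHR169W) encodes a helicase of the small subunit, required for 18S rRNA and stimulated by its cofactor Esf2. Its log2 signal was 10.79, 11.14 and 11.31 on the K37A arrays, against 10.12, 10.33 and 10.43 on the wild-type arrays. The lowest mutant culture lay 0.36 above the highest wild-type culture. The means were 11.08 ± 0.27 in the mutant and 10.29 ± 0.16 in the wild type (SD, n = 3 each), giving a difference of 0.79 (standard error, SE, 0.14, 95% interval 0.44 to 1.13, adjusted p = 0.0256 from limma). Only 6 of the tested probe sets had a larger rise.
*HAS1* (YMR290C), the helicase that is needed for both subunits, had 12.75, 12.78 and 12.94 on the K37A arrays, against 12.77, 12.86 and 12.77 on the wild-type arrays. The groups overlapped, with the lowest of all 6 values in the mutant as well as the highest. The log2 difference was 0.025 (SE 0.059, 95% interval -0.12 to 0.17, adjusted p = 0.802 from limma), which bounds a change in either direction at 1.12-fold. Without K37A replicate 3 the difference of *HAS1* was -0.031.

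The other 8 genes act on the large subunit. *DBP7* (YKR024C), which works on the earliest particles, had 10.84, 11.19 and 11.57 on the K37A arrays, against 10.26, 10.47 and 10.59 on the wild-type arrays. The groups were apart by 0.24, less than the range within the mutant cultures. The means were 11.20 ± 0.37 in the mutant and 10.44 ± 0.17 in the wild type (SD, n = 3 each), and the log2 difference was 0.76 (SE 0.19, 95% interval 0.31 to 1.20, adjusted p = 0.0439 from limma).
*DBP6* (YNR038W), whose product forms a complex with Urb1, Urb2, Nop8 and Rsa3 in the same early particles, had 11.90, 12.00 and 12.07 in the mutant, against 11.83, 11.88 and 11.87 in the wild type. Every mutant value exceeded every wild-type value, by as little as 0.019. The log2 difference of 0.13 (SE 0.051) did not pass (adjusted p = 0.122 from limma).
*DBP9* (YLR276C), a further early factor of the large subunit, had 12.49, 12.52 and 12.61 on the K37A arrays, against 12.54, 12.49 and 12.43 on the wild-type arrays, and the groups overlapped. Its log2 difference was 0.057 (SE 0.048, 95% interval -0.058 to 0.17, adjusted p = 0.442 from limma).
*DBP3* (YGL078C), a nonessential gene whose product speeds cleavage in the first internal transcribed spacer. It had log2 signals of 13.30, 13.34 and 13.39 in the mutant, against 13.19, 13.26 and 13.21 in the wild type. The groups did not overlap, but the log2 difference of 0.12 (SE 0.040, 95% interval 0.028 to 0.22) did not pass (adjusted p = 0.0799 from limma).

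Of the 4 helicases of later nucleolar particles, *DBP10* (YDL031W), which cooperates with the GTPase Nug1, had 12.43, 12.50 and 12.59 on the K37A arrays, against 12.23, 12.24 and 12.27 on the wild-type arrays. Its mutant cultures all lay at least 0.15 above the wild-type cultures, which lay close together. The means were 12.51 ± 0.083 and 12.25 ± 0.021 (mutant and wild type, SD, n = 3 each), which differed by 0.26 (SE 0.049, 95% interval 0.14 to 0.38, adjusted p = 0.0271 from limma).
*DRS1* (YLL008W), required for the large subunit's precursor rRNAs, had 12.08, 12.21 and 12.41 in the mutant, against 12.02, 12.04 and 11.97 in the wild type. The groups did not overlap, though the lowest mutant value was only 0.045 above the highest wild-type value. Its log2 difference of 0.22 was close to that of *DBP10*, but its SE of 0.083 was larger and it did not pass (95% interval 0.027 to 0.42, adjusted p = 0.109 from limma).
*MAK5* (YBR142W), first known for the maintenance of the killer virus, had 12.68, 12.68 and 12.83 on the K37A arrays, against 12.60, 12.66 and 12.61 on the wild-type arrays. The groups were apart by 0.016 and the log2 difference was 0.11 (SE 0.053, 95% interval -0.017 to 0.24, adjusted p = 0.191 from limma).
*SPB4* (YFL002C), which acts among the last of the nucleolar helicases, had 11.20, 11.21 and 11.34 in the mutant, against 11.12, 11.20 and 11.15 in the wild type, with 1 wild-type value above the lowest mutant value. Its log2 difference was 0.094 (SE 0.051, 95% interval -0.028 to 0.22, adjusted p = 0.236 from limma).

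The 10 differences thus ran in the order *DBP8*, *DBP7*, *DBP10*, *DRS1*, *DBP6*, *DBP3*, *MAK5*, *SPB4*, *DBP9* and *HAS1*, spanning 0.76 on the log2 scale. *DBP8* and *DBP7* were closer to each other than the standard error of either. The interval of *DBP8* lay wholly above that of *DBP10*, whereas that of *DBP7* did not, and from *DRS1* to *HAS1* each interval held the difference of the next gene. Without *DBP7* and *DBP8*, the remaining 8 genes had a median log2 difference of 0.12, and the intervals of these 8 lay wholly within 1.5-fold. The unadjusted p from limma was under 0.05 for 6 of the 10 genes, and for 1923 of the 5498 tested probe sets (35.0%). Every mutant array exceeded every wild-type array in 7 of the 10, which held for 20.6% of all tested probe sets (exact permutation test, two-sided p = 0.1 for each of the 7, the smallest that 3 arrays against 3 allow).

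The cultures of the mutant differed from each other more than those of the wild type in all 10 genes. The SD between K37A arrays ran from 0.049 to 0.37, with a median of 0.088, against 0.021 to 0.17 between wild-type arrays, with a median of 0.040. Over all tested probe sets the medians were 0.068 in the mutant and 0.053 in the wild type, and the mutant SD was the larger one in 61.1%. K37A replicate 3 had the highest of the 6 values in all 10 genes. Of the mutant arrays, K37A replicate 1 was the lowest in 9 genes, and wild-type replicate 1 was the lowest of all 6 arrays in 7 genes. Relative to the mean of each gene over the arrays, the 10 genes averaged 0.0032, 0.12 and 0.27 on K37A replicates 1, 2 and 3, against -0.17, -0.099 and -0.11 on wild-type replicates 1, 2 and 3. Without *DBP7* and *DBP8* the same averages were -0.010, 0.043 and 0.16 in the mutant, against -0.076, -0.036 and -0.081 in the wild type.

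The order of the K37A averages was also that of a wider difference between the arrays. The wild-type averages of the 10 genes shared only the lowest array, replicate 1, with it. Without *DBP7* and *DBP8* they did not share that either, with replicate 3 the lowest. The first principal component, with 71.5% of the variance between arrays, placed the K37A arrays from 2.38 (replicate 1) to 12.8 (replicate 3) and the wild-type arrays from -9.88 (replicate 1) to -5.89 (replicate 3). Of 10 targets of the stress activators Msn2 and Msn4, 5 fell in the mutant, none rose and 5 did not pass, with a median log2 difference of -0.36. Of all tested probe sets, 8.08% were called lower and 6.44% higher. In this list 9 differences were negative, and that of *HSP12* was 0.029 (adjusted p = 0.932 from limma). *DDR2* fell by 0.97, the repressor gene *XBP1* fell by 0.84 and *RTN2* fell by 0.67 (adjusted p = 0.0340, 0.0203 and 0.0215 from limma). The mean log2 signal of the list was 11.5 to 11.9 on the K37A arrays and 12.1 to 12.3 on the wild-type arrays, lowest on K37A replicate 3 and highest on wild-type replicate 1. The part of this difference between cultures in the helicase values was not tested. Bulk RNA does not tell fewer cells that express a gene from less RNA per cell.

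**Figure D2:**
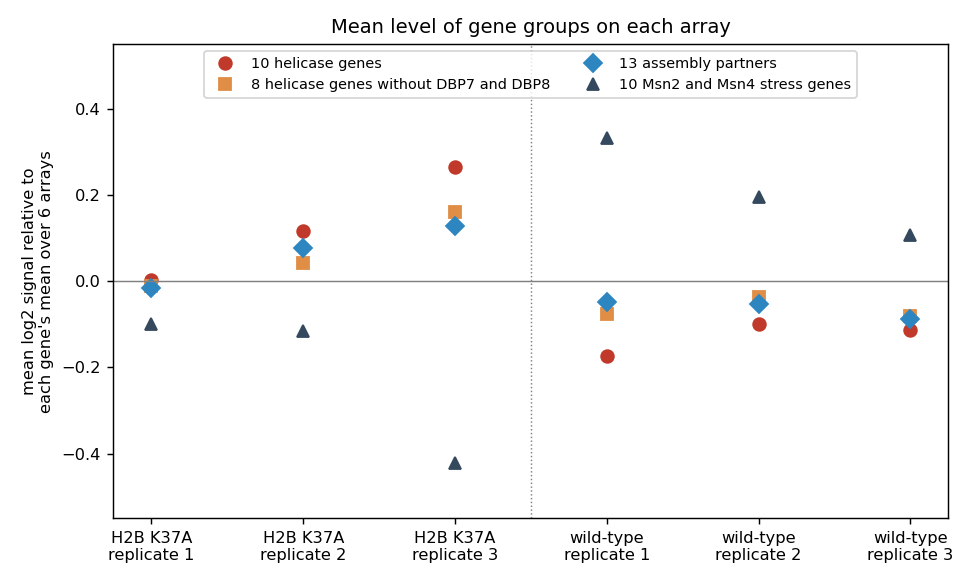
Mean log2 signal of 4 gene groups on each array, relative to the mean of each gene over the 6 arrays, with the H2B K37A arrays on the left and the wild-type H2B arrays on the right. The 10 helicase genes reach 0.27 on K37A replicate 3, where the stress genes are lowest at -0.42, and are lowest at -0.17 on wild-type replicate 1, where the stress genes are highest at 0.33. Without *DBP7* and *DBP8*, the other 8 are lowest at -0.081 on wild-type replicate 3, with -0.076 on wild-type replicate 1.

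Ribosome assembly uses further helicases, of the DEAD, DEAH and Ski2-like kinds. Of 9 such genes, 2 rose in the mutant, none fell and 7 did not pass, with a median log2 difference of 0.16. Among all tested probe sets, 6.44% were called higher and 8.08% lower. *FAL1*, a DEAD-box helicase of the small subunit, had 11.15, 11.52 and 11.44 on the K37A arrays, against 10.77, 10.82 and 10.79 on the wild-type arrays, and rose by 0.58 (SE 0.093, adjusted p = 0.0215 from limma). *DHR2*, a DEAH-box helicase of the small subunit, had 11.51, 11.69 and 11.93 in the mutant, against 11.23, 11.32 and 11.30 in the wild type, and rose by 0.43 (SE 0.10, adjusted p = 0.0415 from limma). Neither gene had overlapping groups, and every mutant array lay above every wild-type array in 20.6% of all tested probe sets. *DBP2*, which also acts in nonsense-mediated decay, had a difference of 0.20 that did not pass (adjusted p = 0.0524 from limma). All 9 differences were positive, from 0.11 to 0.58, as they were in 50.7% of the tested probe sets.
DEAD-box helicases of other processes had a median log2 difference of 0.00089, over 10 measured genes of which none passed and 3 had an unadjusted p under 0.05 from limma, against 35.0% of all tested probe sets. The largest differences in this list were -0.35 for *DBP1*, a translation initiation factor (adjusted p = 0.0619), 0.26 for its paralog *DED1* (adjusted p = 0.303) and 0.26 for *MSS116*, of mitochondrial intron splicing (adjusted p = 0.0556, all from limma). The translation factor genes *TIF1* and *TIF2* are near-identical, and the probe set annotated to *TIF2* is of the kind that reads several similar genes. All 10 nucleolar helicases have probe sets of the kind that reads 1 gene. The difference between the lists was not tested.

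**Figure D3:**
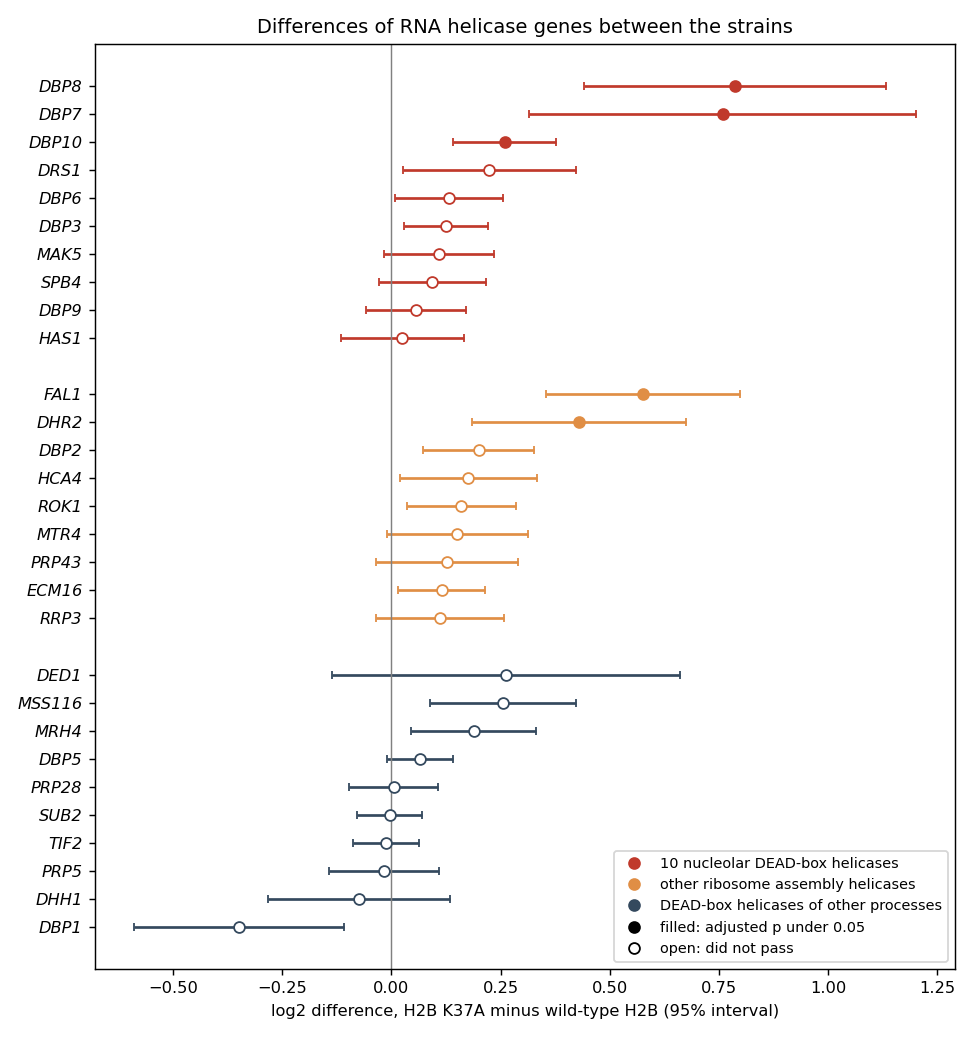
Log2 difference, H2B K37A minus wild-type H2B, of 29 helicase genes with its 95% interval from limma, in 3 groups, filled where the adjusted p was under 0.05 (*HCA4* is also called *DBP4*). The nucleolar DEAD-box helicases and the other ribosome assembly helicases all have differences above 0 on the 6 arrays, that of *HAS1* turning to -0.031 without K37A replicate 3, the largest being 0.79 for *DBP8* and 0.58 for *FAL1*, while the DEAD-box helicases of other processes lie on both sides of 0.

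Helicases act on RNA together with partners that recruit or activate them. Of 13 genes for such partners, 1 rose in the mutant, none fell and 12 did not pass. Over all tested probe sets, 6.44% were called higher and 8.08% lower. The median log2 difference of the 13 genes was 0.12. All 13 differences were above 0, as were 50.7% of those of all tested probe sets. *URB2*, of the Dbp6 complex, had 11.63, 11.77 and 11.88 on the K37A arrays, against 11.49, 11.52 and 11.53 on the wild-type arrays, and rose by 0.25 (SE 0.064, adjusted p = 0.0488 from limma). *ESF2*, the cofactor of Dbp8, had 10.09, 10.27 and 10.31 in the mutant, against 9.95, 10.03 and 9.83 in the wild type, a difference of 0.29 that did not pass (SE 0.076, adjusted p = 0.0533 from limma). The groups of both genes were apart, and every mutant array exceeded every wild-type array in 20.6% of all tested probe sets. *EBP2*, a partner of Mak5, had a difference of 0.19 (adjusted p = 0.0559 from limma). *NUG1*, the partner of Dbp10, had a difference of 0.022 (SE 0.038, adjusted p = 0.723 from limma).
Among 5 genes for regulators of ribosome biogenesis transcription, none passed, and 2 had an unadjusted p under 0.05 from limma, against 35.0% of all tested probe sets. *TOD6*, a repressor of these genes, had 11.12, 11.32 and 11.57 on the K37A arrays, against 10.71, 11.01 and 10.98 on the wild-type arrays, a difference of 0.44 (SE 0.13, adjusted p = 0.0671 from limma). The repressor genes *STB3* and *DOT6* had differences of -0.20 and -0.18 (adjusted p = 0.0769 and 0.172 from limma), and *SFP1*, an activator, 0.042 (adjusted p = 0.758 from limma).

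Likeness of profile was measured as the Euclidean distance between the 6 log2 values of a probe set, centred on their mean, and the mean centred profile of the 10 genes. Outside the 10, the nearest were *PDC2*, an activator of pyruvate decarboxylase genes, at 0.038, *RAD30*, DNA polymerase eta, at 0.039, *URB2* and *RBS1* at 0.042, and *UTP21*, of the small subunit processome, at 0.045. The mean profile includes the larger differences of *DBP7* and *DBP8*. The log2 differences of these nearest genes ran from 0.24 (*RBS1*) to 0.27 (*UTP21*), against a median of 0.13 over the 10 genes. *UTP21* rose by 0.27 (SE 0.069, adjusted p = 0.0488 from limma) and *PDC2* by 0.26 (SE 0.065, adjusted p = 0.0439 from limma). The mean profile of *DBP7* and *DBP8*, considered after their values had been seen, was nearest to *RRN11*, a subunit of the core factor of RNA polymerase I, at 0.16, the aspartate aminotransferase gene *AAT1* at 0.18, the endonuclease gene *HO* at 0.19, *GFD2* at 0.20 and *RRN3*, the initiation factor of RNA polymerase I, at 0.22. *RRN11* had a log2 difference of 0.74 (SE 0.15, adjusted p = 0.0325 from limma) and *RRN3* of 0.65 (SE 0.13, adjusted p = 0.0299 from limma). Distances over 6 arrays that fall into 2 strains mostly follow the strain difference.

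Genes of ribosome biogenesis often lie beside each other in the yeast genome, and the protein-coding genes next to each helicase gene were read after the values of the helicases had been seen. Of 20 such neighbours in the gene table, 18 were measured, of which 4 rose in the mutant, 3 fell and 11 did not pass. The shares over all tested probe sets were 6.44% called higher and 8.08% lower, and the difference from them was not tested. Beside *DBP8*, *MTG2* and *NMD3* had differences of -0.058 and 0.096, neither of which passed (adjusted p = 0.529 and 0.171 from limma). *RPC37*, which is read in the opposite direction from the upstream side of *DBP7*, had a difference of 0.023 (SE 0.036, adjusted p = 0.700 from limma). *DBP10* had neighbours that rose on both sides, *SLM3* by 0.22 and the splicing factor gene *PRP9* by 0.22 (adjusted p = 0.0402 and 0.0225 from limma). The divergent neighbours *BMT2* of *MAK5*, a methyltransferase of large subunit rRNA, and *DEG1* of *SPB4*, a pseudouridine synthase, rose by 0.37 and 0.22 (adjusted p = 0.0326 and 0.0447 from limma), beside helicase genes that did not pass. *TDA1*, a kinase gene divergent from *HAS1*, fell by 0.75, and *ABZ2* on its other side fell by 0.23 (adjusted p = 0.0336 and 0.0178 from limma). *KXD1*, beside *DBP3*, fell by 0.17 (adjusted p = 0.0353 from limma).

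The calls depended on which arrays were included. *DBP8* did not pass without wild-type replicates 1, 2 or 3 or K37A replicate 2 (adjusted p = 0.0817, 0.0944, 0.0588 and 0.0977 from limma), *DBP10* not without the same arrays (0.0876, 0.0988, 0.0684 and 0.0999) and *DBP7* not without these or K37A replicate 3 (0.125, 0.122, 0.0880, 0.127 and 0.0564). The whole table had 798 calls, and 55, 2, 135 and 7 without wild-type replicates 1, 2 and 3 and K37A replicate 2 and 501 without K37A replicate 3. *FAL1*, *DHR2* and *URB2* were lost without the same 4 arrays, *URB2* also without K37A replicate 3. The differences themselves stayed between 0.67 and 0.94 for *DBP8*, 0.57 and 0.94 for *DBP7* and 0.22 and 0.30 for *DBP10* when single arrays were left out. Without K37A replicate 1, *DBP8*, *DBP7* and *DBP10* passed (adjusted p = 0.0100, 0.0135 and 0.0146 from limma), 5 of the 10 helicase genes were called higher and the whole table had 1140 calls. *DBP8* and *DBP10* also passed without K37A replicate 3 (adjusted p = 0.0404 and 0.0380 from limma). Of the 23 named genes that passed on all 6 arrays, stress genes, neighbours and genes of like profile included, 0, 0 and 1 passed without wild-type replicates 1, 2 and 3, and 22, 0 and 13 passed without K37A replicates 1, 2 and 3.
The plasmid gene *HTB1* had log2 signals of 14.4 on all 3 K37A arrays, against 14.5 on the wild-type arrays, which does not check the genotype, since the mutated codon is not read by the array. The probe sets of the genes labelled as deleted were not at background: *HTB2* was at 10.59, 10.51 and 10.40 on the K37A arrays, against 10.59, 10.49 and 10.37 on the wild-type arrays. A probe set of *HTA2* was at 10.48, 10.52 and 10.46 in the mutant, against 10.58, 10.56 and 10.49 in the wild type. The brighter probe set of *HTA2*, of the kind that reads several similar genes, was at 13.97, 13.92 and 13.94 in the mutant. It was at 14.05, 14.02 and 13.97 in the wild type. These signals alone cannot decide whether the genes are deleted in either strain. A part of RNA from the similar plasmid genes *HTB1* and *HTA1* in these signals was not tested. The paper reports Western blots in which its antibody against the dimethylated lysine detected wild-type histones but not those of the mutant strain. The a-specific genes *STE2*, *BAR1*, *STE6*, *MFA1* and *MFA2* were above 11.6 on every array. Of the alpha-specific genes, *MF(ALPHA)1* was at 5.60 to 5.85, under the 6.29 that marks the 95th percentile of background probe sets, while *STE3* and *MF(ALPHA)2* were above it at 8.38 to 8.74 and 7.78 to 8.09. With 3 arrays for each strain, their number limits the precision of every value.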

How the data were processed

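RNA of 3 H2B K37A and 3 wild-type H2B cultures was hybridized to 1 array each. The submitters' processing notes name RMA and Affymetrix Expression Console, from which the authors deposited 1 log2 signal for each probe set and array. The sources used here give no versions. RMA equalises the arrays, so that a change common to most transcripts is removed, and it compresses signals near background. Of 10928 probe sets, 7244 carried 1 gene symbol, 1 several and 3683 none. The 5498 whose gene identifier matched the R64 gene table, for 5449 genes, were tested with no filter. The 1746 with other symbols served as background. No array build is named, so no coordinates are given, and promoter and protein sequences were not analysed here. limma 3.58.1 in R 4.3.3 was run with lmFit and eBayes on strain alone, with two-sided p-values and Benjamini-Hochberg adjustment over all 5498 probe sets. A gene with several probe sets was represented by the brightest. The fit was also run on simulated data with independent noise for each probe set and array. Those data hold no difference shared by the genes of an array, so they cannot check the fit for it.
The 10 genes, the lists and the tests were chosen with earlier results of these data known. The rule for named genes took the 10 genes, of each list the 3 with the largest difference or all that passed, the 5 nearest profiles, and mating-type and histone genes as checks. Genes named outside it were *NUG1*, *SFP1*, the neighbours and the genes like *DBP7* and *DBP8*, chosen after their values were seen. Not every array correlated best with the array of its own replicate number, and the strain was fitted without a block. With 3 arrays for each strain, such correlations cannot settle whether the cultures were paired.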

Additional observations from a re-analysis of the deposited data

How the results depend on the processing

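No helicase gene was called lower under any of the 15 alternatives. The 3 calls higher became 1 over the full 10928 probe sets, 6 under array weights, whose estimation stopped short of its tolerance, 0 with both K37A replicate 3 and wild-type replicate 1 left out, and 0 to 5 when single arrays were left out (limma, with 3 to 6 of the 10 genes at an unadjusted p under 0.05 in these last settings and 3 without the pair). The calls of the whole table, 798, became 281, 1956, 129 and 2 to 1140 under the same settings (1435 to 2049 at an unadjusted p under 0.05 without single arrays). *HAS1* changed sign, to -0.024 with array weights, -0.044 without the pair and -0.031 to 0.061 without single arrays. The median of the 10 genes lay between 0.082 and 0.16 throughout. With the replicate number as a block, 3 helicase genes and 947 probe sets passed. The SE in that fit was 0.055 for *DBP8*, 0.085 for *DBP7* and 0.042 for *DBP10* (adjusted p = 0.00858, 0.0146 and 0.0265 from limma). Same-numbered arrays deviated from their group means with correlations across genes of 0.40, -0.29 and 0.23, and not every array correlated best with its own number. Of the 23 named genes called, 7 passed over the full 10928 probe sets, 0 to 22 without single arrays and 2 without the pair, while 23 passed with background signals removed, with array weights, with an intensity trend or with probe sets averaged, and 22 with quantile normalization again, median centring or the block. The helicase genes all lay above the background percentile. *DBP8* and *DBP7*, with the largest differences, had the lowest wild-type means of the 10 genes, 10.29 and 10.44. The means of the others ran from 11.16 (*SPB4*) to 13.22 (*DBP3*). A relation between signal and size of difference was not tested.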
